A study of Homo sapiens with 15 samples.

Results

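The ATF4 amino acid response was followed through 10 genes in SNB19 cells, a human glioblastoma line, that carried the transcriptional repressor ZBTB18 or an empty lentiviral vector. The genes were taken by symbol from a table of 18485 gene symbols: ATF4, DDIT3, TRIB3, CHAC1 and DDIT4, which regulate or execute the stress response, and ASNS, PHGDH, PSAT1 and SHMT2, which make amino acids. ATF3 was not analysed here, so 9 of the 10 are described. All 9 were among the 6767 genes with enough reads to be tested. DDIT4, TRIB3 and CHAC1 had low counts and passed that filter through their higher libraries.

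The 15 libraries were Oxford Nanopore cDNA libraries of polyadenylated RNA, in 5 groups of 3. All cells were SNB19 cells grown in the same serum-containing medium and transduced with a pCHMWS lentiviral vector. SF-mut cells carried the mutant of the short form, SF-Nte cells the unmutated short form Nte, FL-mut cells the mutant of the full-length protein, FL cells the unmutated full-length protein, and EV cells the empty vector, so that transduction itself was common to every group. The labels used here name neither the residues changed in the mutants nor what Nte abbreviates, and they do not say whether the 3 libraries of a group came from separate cultures, so each p-value measures the spread between these libraries, which may be technical.

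ATF4 is a leucine-zipper transcription factor whose mRNA is translated more when the initiation factor eIF2 is phosphorylated, as happens when amino acids run short, when proteins misfold in the endoplasmic reticulum or when haem is lacking. It then activates genes for amino acid synthesis and uptake together with DDIT3, which encodes the factor CHOP, and CHOP and ATF4 together drive TRIB3 and CHAC1. Because much of this control acts on translation, the level of ATF4 mRNA does not by itself report the activity of the protein. In many tumour lines the enzymes of serine synthesis depend on this factor.

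ATF4 binds composite elements shared with C/EBP factors, and 2 of the 8 genes with a promoter window in RefSeq (GRCh38.p14; 250 bases before to 50 after the start) held such an element. They are shown with the promoter of PHGDH, whose level separated the libraries most widely among the enzymes, to let the sites be read beside the values. The motif searched was TGATGNAA on both strands, and it is in capitals where present; CHAC1 has it on the opposite strand, so that it reads as its reverse complement. In ASNS it lay at bases -68 to -61 from the start and in CHAC1 at -209 to -202, and no match in these letters was found in the PHGDH window.
ASNS (chr7:97872409-97872658, minus strand): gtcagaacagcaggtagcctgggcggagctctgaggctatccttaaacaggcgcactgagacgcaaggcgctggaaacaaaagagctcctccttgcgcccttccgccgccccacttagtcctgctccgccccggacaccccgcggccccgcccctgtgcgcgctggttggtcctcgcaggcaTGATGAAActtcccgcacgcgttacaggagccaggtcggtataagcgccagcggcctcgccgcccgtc
CHAC1 (chr15:40953221-40953470, plus strand): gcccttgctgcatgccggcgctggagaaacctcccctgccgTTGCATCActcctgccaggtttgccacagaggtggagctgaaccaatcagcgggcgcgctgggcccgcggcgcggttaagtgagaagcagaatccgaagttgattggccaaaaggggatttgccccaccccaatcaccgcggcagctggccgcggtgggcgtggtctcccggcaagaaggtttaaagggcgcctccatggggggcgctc
PHGDH (chr1:119711684-119711933, plus strand): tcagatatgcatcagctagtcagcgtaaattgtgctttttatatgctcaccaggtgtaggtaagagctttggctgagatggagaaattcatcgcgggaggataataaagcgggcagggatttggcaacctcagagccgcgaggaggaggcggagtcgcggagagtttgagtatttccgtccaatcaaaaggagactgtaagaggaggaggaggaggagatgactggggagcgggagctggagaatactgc
The motif was found in 3.62% of 35116 RefSeq promoter windows of the same length. That share is per window, whereas the 8 genes together hold 13 windows, so 2 of 8 genes is not directly comparable with it. The motif ACATCTG, an E-box-like sequence known for ZBTB18, was found in 3.4% of those windows and, among the 8 genes, in ATF4 alone, where it lay 24 to 30 bases after one annotated start on the opposite strand. A match describes letters and not a bound site.

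In GENCODE release 29 on GRCh38, DDIT3 lies at chr12:57516588-57521737 on the minus strand and overlaps MARS and MBD6 on the other strand. It also overlaps the protein-coding gene AC022506.1 and the microRNA gene MIR616 on its own strand. ASNS overlaps the transcript AC079781.5 on its own strand and the processed pseudogene AC005326.1 on the other. SHMT2 (chr12:57229327-57234935, plus strand) overlaps NDUFA4L2 on the other strand, and DDIT4 (chr10:72273920-72276036, plus strand) overlaps the antisense gene DDIT4-AS1. How the counting treated strand is not given in the sources used here, so reads of such overlapping partners could not be told apart. For partners on the same strand, strand would not separate them in any case. ATF4, ASNS and PSAT1 each have 4 processed pseudogenes named after them, which makes the placing of their reads uncertain.

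Total counts per library were 315693 to 597414 in SF-mut, 432611 to 603155 in SF-Nte, 865997 to 1313573 in FL-mut, 803316 to 1393060 in FL and 1274474 to 1930245 in EV. Levels are given as CPM, counts scaled to the size of their library, after TMM scaling, which aligns the libraries on their common genes, and means are given with SD over 3 libraries. ZBTB18 was higher than in EV in each construct group, by a log2 fold change between 5.58 ± 0.94 in SF-Nte and 9.12 ± 1.06 in FL-mut (SE; edgeR quasi-likelihood test, adjusted p between 0.00131 and 0.0493). The 8 markers of the glioblastoma line together held 2570 to 8510 CPM in each library, a sum in which ANXA1 weighs heavily (5793 ± 2056 CPM in FL and 2590 ± 1050 CPM in EV). Of the 6 markers tested, 1 was higher and 4 were lower in FL than in EV at an unadjusted p under 0.05, with a median log2 fold change of -1.37 and 5 of 6 below 0. VIM, an intermediate filament gene of mesenchymal cells, averaged 765 ± 69.5 CPM in SF-Nte and 226 ± 74.6 CPM in FL, a log2 fold change of 1.75 ± 0.38 (SE; edgeR, adjusted p = 0.0361) that missed the threshold without any 1 of the 6 libraries (adjusted p between 0.0528 and 0.222). The part of these markers in the values below was not tested. Markers of other cell types stayed low in every library, with at most 34.7 CPM for the 6 immune genes in the table and at most 28.2 CPM for the 4 neuronal genes.

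None of the 9 transcripts passed the test, an adjusted p of 0.05 in edgeR over all 6767 genes, in any of 13 tests. Against EV, 0 of 9 passed in SF-mut, where 0.0591% of all tested genes did. The same count was 0 of 9 in SF-Nte, beside 0.0443% of all genes, 0 of 9 in FL-mut, beside 0.192%, and 0 of 9 in FL, beside 0.31%. At an unadjusted p under 0.05 the counts were 0 for SF-mut (5.36% of all genes), 0 for SF-Nte (7.23%), 1 for FL-mut (10.5%) and 1 for FL (7.64%), the 1 gene being DDIT3 both times. These 4 comparisons share the EV libraries. As each library is a bulk sample, fewer cells expressing a gene and less RNA per cell cannot be told apart.

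Between constructs, 0 of 9 passed in SF-mut against SF-Nte, where 0% of all tested genes did, and 0 of 9 in FL-mut against FL, beside 0.0887%. The count was 0 of 9 in SF-mut against FL-mut, beside 0.163%, and 0 of 9 in SF-Nte against FL, beside 1.06%. At an unadjusted p under 0.05, 4 of 9 were reached in FL-mut against FL, all higher in FL-mut (12.1% of all genes in either direction), and 3 of 9 in SF-Nte against FL (13.2%), with DDIT3 lower and PSAT1 and DDIT4 higher in SF-Nte. No member reached it in SF-mut against SF-Nte (8.33%) or in SF-mut against FL-mut (9.66%). CHAC1 is among the 4 in FL-mut against FL, and DDIT4 among the 3 in SF-Nte against FL. Both passed the filter on low counts only through groups other than FL, so their direction in these counts is no separate support. The joint test over the 5 groups passed 0 of 9, beside 1.12% of all genes, with 3 of 9 at an unadjusted p under 0.05 (16.3%). The interaction, which asks whether mutant and unmutated protein differed by another amount in the full-length than in the short form, passed 0 of 9, beside 0.0296%, with 0 of 9 at an unadjusted p under 0.05 (4.65%). DESeq2 called PHGDH in FL-mut against FL (adjusted p = 0.04) and DDIT3 in the joint test (adjusted p = 0.0432), and no member in the other 8 tests in which it was run. Over the whole table DESeq2 called 112 genes in FL-mut against FL and 652 in the joint test, against 6 and 76 in edgeR.

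**Figure D1:**
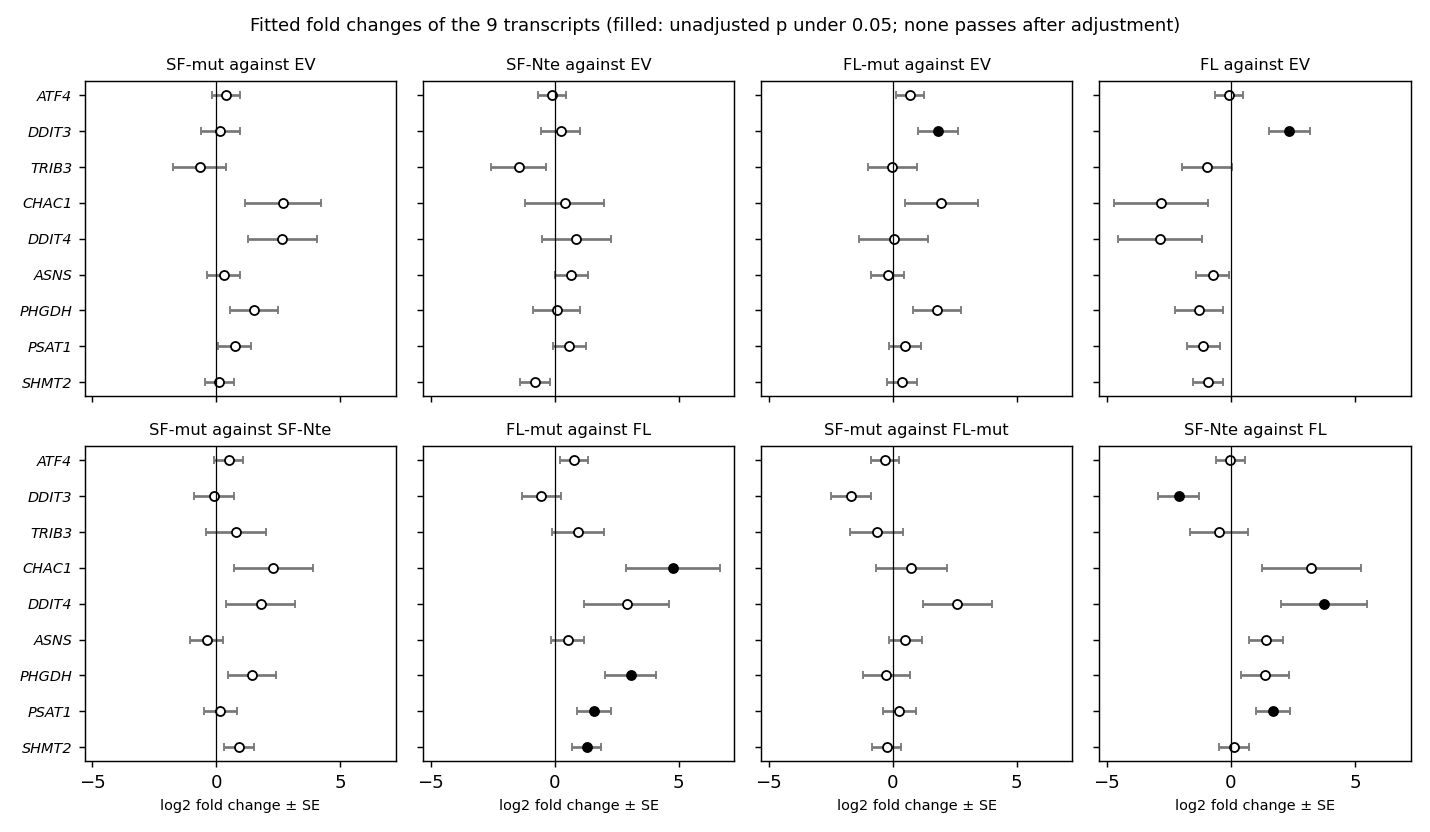
Log2 fold changes with SE from the edgeR fit for the 9 transcripts, 1 panel per comparison of 2 groups with the group named first over the group named after it. Filled points have an unadjusted p under 0.05 and none passed after adjustment; 8 of 9 transcripts lie below 0 in FL against EV and 8 of 9 lie above 0 in FL-mut against FL.

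The fold changes had unlike medians in the 8 comparisons. In FL against EV the median log2 fold change of the 9 was -0.96, and 8 of 9 were below 0, whereas the median of all tested genes was -0.01 and 50.4% were below 0. In FL-mut against FL the median was 1.29 with 8 of 9 above 0, beside 0.02 and 51.2% over all genes. In SF-Nte against FL it was 1.37 with 6 of 9 above 0, beside -0.15 and 42.9% over all genes. The medians were 0.39 in SF-mut against EV, 0.25 in SF-Nte against EV, 0.49 in FL-mut against EV, 0.78 in SF-mut against SF-Nte and -0.25 in SF-mut against FL-mut. DDIT3 was the 1 transcript above 0 in FL against EV and the 1 below 0 in FL-mut against FL. DDIT4, TRIB3 and CHAC1, which passed the filter on low counts only through groups other than FL, count among the 8 in both comparisons.

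**Figure D2:**
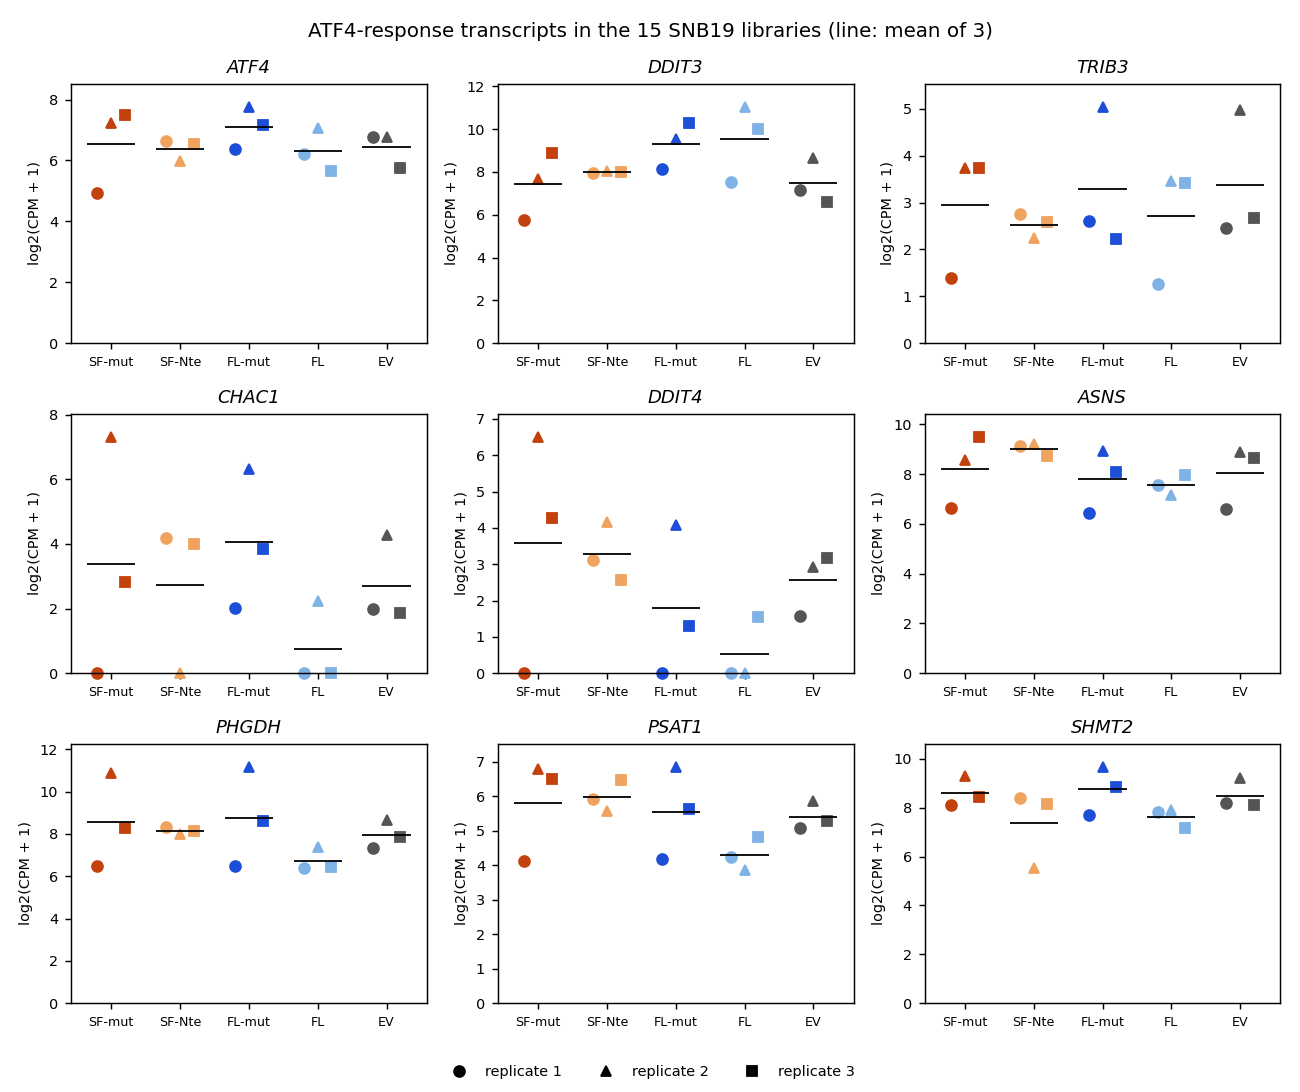
Level of each transcript as log2(CPM + 1) in the 15 libraries, with SF-mut, SF-Nte, FL-mut, FL and EV from left to right, symbols for replicate number and a line at the mean of the 3 log2 values. PHGDH reaches 1911 CPM in SF-mut replicate 2 and 2283 CPM in FL-mut replicate 2, while DDIT3 is highest in FL replicate 2 at 2078 CPM.

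ATF4, the factor that gives the response its name, had overlapping levels in all groups. It had 29.4, 148 and 178 CPM in SF-mut replicates 1, 2 and 3, 98.2, 62.1 and 92.1 CPM in SF-Nte, 81.8, 214 and 142 CPM in FL-mut, 72.8, 134 and 49.4 CPM in FL, and 108, 107 and 53.4 CPM in EV. The group means lay between 84.2 ± 19.3 CPM in SF-Nte and 146 ± 66.2 CPM in FL-mut (n = 3). In FL the interval of the log2 difference from EV ran from -1.26 to 1.12 (95%, edgeR), so a change of moderate size in either direction was not detectable with these libraries. Of its sum of squares over the 15 libraries on the log2 scale, 85.3% lay within groups, against a median of 63.1% over all tested genes. ATF4 counts were whole multiples of 3 in 14 of 15 libraries, a property that 1.77% of tested genes had in at least 90% of their counts, so its counts may not stand for that many separate reads, and the reason was not tested.

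DDIT3, which encodes the pro-apoptotic factor CHOP, was the transcript with the lowest p of the 9 in FL against EV. It had 281, 742 and 1264 CPM in FL-mut replicates 1, 2 and 3, 186, 2078 and 1043 CPM in FL, and 143, 406 and 96.2 CPM in EV. In the short-form groups it had 52.3, 200 and 465 CPM in SF-mut and 248, 265 and 254 CPM in SF-Nte. Replicates 2 and 3 of FL-mut and FL stood above every EV and short-form library, but FL replicate 1 stood inside the EV range. The means were 762 ± 492 CPM in FL-mut, 1103 ± 948 CPM in FL and 215 ± 167 CPM in EV. The log2 fold change was 2.36 ± 0.82 in FL against EV (SE; edgeR, adjusted p = 0.347) and 1.83 ± 0.81 in FL-mut against EV (adjusted p = 0.443). The short forms were lower than the full-length forms in the fit, at -2.11 ± 0.82 for SF-Nte against FL (edgeR, adjusted p = 0.272) and -1.67 ± 0.81 for SF-mut against FL-mut (edgeR, adjusted p = 0.521). Single libraries moved these values. FL against EV was 1.51 without FL replicate 2 and 3.16 without EV replicate 2, and FL-mut against EV was 1.2 without FL-mut replicate 3. SF-Nte against FL was -1.28 without FL replicate 2, and SF-mut against FL-mut was -1.11 without FL-mut replicate 3 and -2.70 without SF-mut replicate 3. The difference between FL-mut and FL had an interval from -2.19 to 1.13 (95%). MARS, whose gene overlaps DDIT3 on the other strand, had 141 ± 116 CPM in FL-mut, with 47.5, 270.5 and 104 CPM in replicates 1, 2 and 3, 76.7 ± 9.41 CPM in FL and 105 ± 36.2 CPM in EV. Both genes were highest in replicate 2 in EV, and their highest libraries differed in the other groups. Replicate 1 was the lowest library for both in SF-mut, FL-mut and FL. The part of MARS reads in the DDIT3 values was not tested.

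TRIB3, a pseudokinase that restrains AKT and ATF4 signalling, was close to the detection limit. Its counts were 1, 4 and 6 in SF-mut, 3, 2 and 2 in SF-Nte, 5, 28 and 5 in FL-mut, 2, 8 and 10 in FL, and 9, 42 and 6 in EV. FL-mut replicate 2 (31.7 CPM) and EV replicate 2 (30.6 CPM) held the highest levels, and the other 13 libraries had 12.3 CPM or less. All groups overlapped, and 90.4% of its sum of squares lay within groups, the highest share of the 9.

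CHAC1, a glutathione-degrading enzyme induced through ATF4 and CHOP, was read in 11 of 15 libraries. It had 0, 157 and 6.15 CPM in SF-mut, 17.3, 0 and 14.9 CPM in SF-Nte, 3.03, 78.1 and 13.3 CPM in FL-mut, 0, 3.73 and 0 CPM in FL, and 3.0, 18.2 and 2.67 CPM in EV. FL had the fewest reads, and the libraries with the most were replicate 2 of SF-mut and replicate 2 of FL-mut. A count of 0 allows up to 3 counts, which is 2.08 CPM in FL replicate 1 and 2.90 CPM in FL replicate 3. Summed over libraries, FL held 3 counts and EV 34, of which 25 came from EV replicate 2, a depth-adjusted ratio of 0.121 with a 95% exact interval of 0.0238 to 0.385 that covers counting error only. FL-mut held 90 counts against those 3 in FL, a ratio of 30.5 (10.1 to 150), of which 69 came from 1 library. The fitted log2 fold change in FL-mut against FL was 4.78 ± 1.89 (SE; edgeR, adjusted p = 0.354), and it was between 2.89 and 7.85 with single libraries left out. In FL against EV the fitted value was -2.82 ± 1.91 (edgeR, adjusted p = 0.834), and it was -1.41 without EV replicate 2 and -5.92 without FL replicate 2. FL replicate 2 was the one FL library with CHAC1 reads. Both 7.85 and -5.92 were fitted without it, on FL counts of 0 alone, and their size is not meaningful. CHAC1 counts were multiples of 3 in 10 of 11 libraries with reads, so the counting intervals may be too narrow.

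DDIT4, also called REDD1, an inhibitor of mTORC1 that other stresses such as hypoxia also raise, had few reads. It had 0, 89.4 and 18.5 CPM in SF-mut, 7.70, 16.9 and 4.98 CPM in SF-Nte, 0, 15.8 and 1.47 CPM in FL-mut, 0, 0 and 1.94 CPM in FL, and 2.0, 6.56 and 8.01 CPM in EV. The FL levels were the lowest, but 1.94 CPM in FL replicate 3 and 2.0 CPM in EV replicate 1 rest on 2 and 4 counts. The 0 counts of FL replicates 1 and 2 allow up to 2.08 and 3.73 CPM. Whether every FL library lay below every EV library could therefore not be settled at this depth. FL held 2 counts and EV 22, a ratio of 0.125 (95% exact interval 0.0142 to 0.507, counting error only), and SF-Nte held 15 counts, a ratio to FL of 16.9 (3.94 to 153). The edgeR log2 fold change was -2.86 ± 1.70 in FL against EV (adjusted p = 0.79) and 3.74 ± 1.74 in SF-Nte against FL (adjusted p = 0.375). With FL replicate 3 left out, the one FL library with reads, they were -5.37 and 6.23.

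ASNS, which makes asparagine from aspartate and glutamine, had 98, 376 and 716 CPM in SF-mut, 553, 585 and 421 CPM in SF-Nte, 84.8, 484 and 273 CPM in FL-mut, 190, 143 and 248 CPM in FL, and 97.0, 477 and 401 CPM in EV. All SF-Nte libraries stood above all FL libraries, with a log2 fold change of 1.42 ± 0.67 (SE; edgeR, adjusted p = 0.38). In a fit of these 2 groups alone ASNS passed (log2 fold change 1.44, edgeR adjusted p = 0.017), as did PHGDH (1.39, adjusted p = 0.0494). That fit called 130 genes over the whole table, against 72 in the fit of all 15 libraries. Replicate 1 was the lowest library in SF-mut, FL-mut and EV, below all FL libraries.

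PHGDH, which takes 3-phosphoglycerate out of glycolysis into serine synthesis, had 88.2, 1911 and 314 CPM in SF-mut, 322, 252 and 279 CPM in SF-Nte, 88.9, 2283 and 387 CPM in FL-mut, 81.8, 164 and 84.2 CPM in FL, and 162, 408 and 231 CPM in EV. The 2 highest libraries were replicate 2 of SF-mut and replicate 2 of FL-mut, and within each of those groups the highest library held over 20 times the lowest (21.7 and 25.7 times). The SF-Nte libraries lay within 1.28 times of each other and above all FL libraries. The means were 284 ± 35.1 CPM in SF-Nte, 110 ± 46.9 CPM in FL and 267 ± 127 CPM in EV. PHGDH had the lowest p of the 9 in FL-mut against FL, with a log2 fold change of 3.07 ± 1.02 (SE; edgeR, adjusted p = 0.32), and it was 1.13 without FL-mut replicate 2. Against EV the fold change was 1.52 ± 0.96 in SF-mut and 1.78 ± 0.97 in FL-mut (edgeR, adjusted p = 0.953 and 0.549), and these became -0.44 without SF-mut replicate 2 and -0.17 without FL-mut replicate 2. In SF-mut against SF-Nte it was 1.43 ± 0.97 (edgeR, adjusted p = 0.71), and -0.53 without SF-mut replicate 2.

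PSAT1, the transaminase of the next step of serine synthesis, had 16.3, 111 and 90.2 CPM in SF-mut, 59.7, 47.0 and 87.2 CPM in SF-Nte, 17.2, 114 and 48.7 CPM in FL-mut, 18.0, 13.7 and 27.1 CPM in FL, and 33.0, 56.8 and 38.3 CPM in EV. Every FL library lay below every EV and every SF-Nte library, whereas replicate 1 of both mutant groups lay in the FL range. The log2 fold change was -1.11 ± 0.67 in FL against EV (SE; edgeR, adjusted p = 0.792), 1.70 ± 0.69 in SF-Nte against FL (adjusted p = 0.292) and 1.60 ± 0.68 in FL-mut against FL (adjusted p = 0.378). The last was 0.75 without FL-mut replicate 2.

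SHMT2, the mitochondrial enzyme that splits serine into glycine and a one-carbon unit, had 278, 620 and 344 CPM in SF-mut, 337, 45.2 and 284 CPM in SF-Nte, 209, 806 and 462 CPM in FL-mut, 226, 236 and 142 CPM in FL, and 288, 584 and 273 CPM in EV. SF-Nte replicate 2, with 24 counts, was the lowest of the 15 libraries, and all FL libraries lay below all EV libraries. The log2 fold change was -0.92 ± 0.59 in FL against EV (SE; edgeR, adjusted p = 0.814) and 1.29 ± 0.60 in FL-mut against FL (adjusted p = 0.406), and with EV replicate 2 left out the first was -0.50, while the second was 0.74 without FL-mut replicate 2. In FL against EV the printed levels did not overlap for PSAT1 and SHMT2, lower in FL, and nominally for DDIT4, whose FL levels lie within the limit that a count of 0 allows, beside 16.9% of all tested genes in either direction. In SF-Nte against FL they did not overlap for ASNS, PSAT1 and PHGDH, higher in SF-Nte, and for DDIT4, which rests there on 2 counts in FL and 15 in SF-Nte, beside 24.4%. The other 6 pairs of groups overlapped for each of the 9, beside 10.6% of all genes without overlap in SF-mut against EV, 17.3% in SF-Nte against EV, 17.4% in FL-mut against EV, 12.4% in SF-mut against SF-Nte, 18.4% in FL-mut against FL and 13.5% in SF-mut against FL-mut.

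The transcripts varied together between the libraries of a group. The deviations of their log2 CPM from the group mean correlated above 0 in 36 of 36 pairs of transcripts over the 15 libraries, between 0.26 and 0.89 with a median of 0.66, whereas the median over all pairs of tested genes was 0 and 50.3% were above 0. The points share library, depth and scaling, and the values are given as a description. DDIT4, TRIB3 and CHAC1 passed the filter on low counts through their higher libraries, so pairs that hold them are no separate support. The mean deviation of the 9 ran from -1.77 to 1.32 in SF-mut and from -1.29 to 1.34 in FL-mut. It ran from -0.45 to 0.29 in SF-Nte, from -0.47 to 0.4 in FL and from -0.54 to 0.81 in EV. For levels as they stand the correlations ranged from -0.07 to 0.92 with a median of 0.57, the highest being PHGDH with CHAC1 and the lowest DDIT3 with DDIT4. DDIT3 stood apart in level, at 0.07 with PSAT1, 0.09 with SHMT2 and 0.18 with PHGDH, but its deviations within groups correlated with theirs at 0.54, 0.27 and 0.49.

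**Figure D3:**
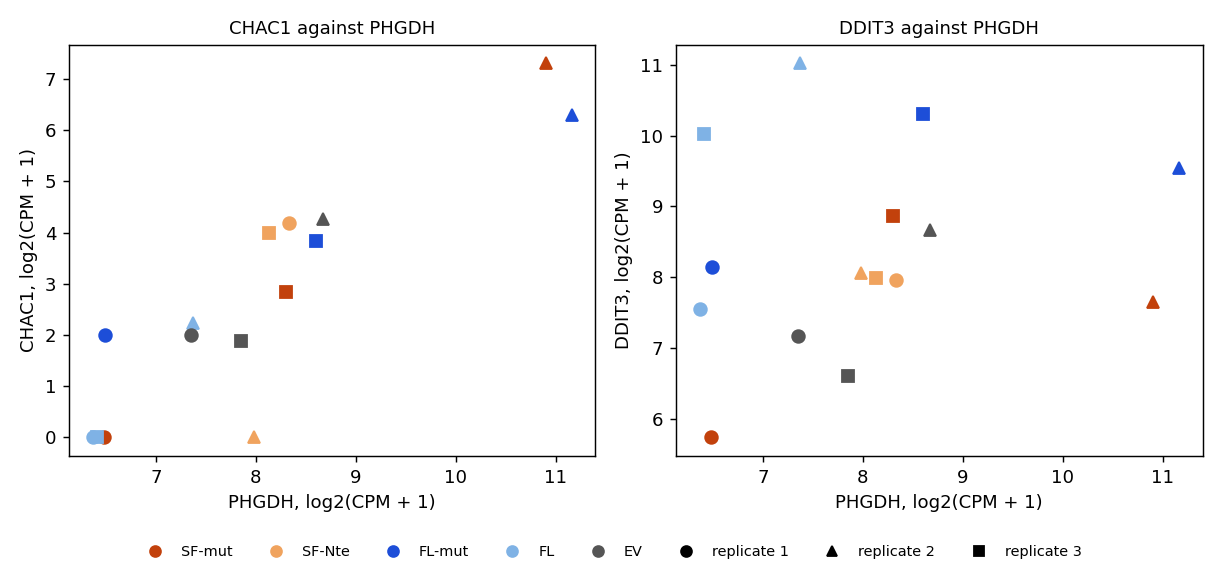
CHAC1 against PHGDH and DDIT3 against PHGDH, each as log2(CPM + 1), in the 15 libraries, with colours for groups and symbols for replicate numbers. The levels of CHAC1 and PHGDH correlate at 0.92, with replicate 2 of SF-mut and of FL-mut at the upper right, whereas FL replicates 2 and 3 combine high DDIT3 with low PHGDH.

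As a mean over the 9 transcripts, each centred on its own mean in log2 CPM, the libraries lay at -1.51, 1.58 and 0.72 in SF-mut replicates 1, 2 and 3, at 0.34, -0.40 and 0.21 in SF-Nte, at -0.90, 1.73 and 0.35 in FL-mut, at -1.11, -0.23 and -0.56 in FL, and at -0.61, 0.74 and -0.34 in EV. All FL libraries lay below 0, and the spread within SF-mut and FL-mut exceeded the distance between any of the group means. Replicate 2 was highest in SF-mut, FL-mut, FL and EV, and lowest in SF-Nte. DDIT4, TRIB3 and CHAC1 are part of this mean and passed the filter on low counts only through groups other than FL. Their part in the low FL means and the high replicate 2 means is therefore no separate support, and a mean without them was not taken. FL-mut replicate 2 and SF-mut replicate 2 were the highest libraries of all for PSAT1, PHGDH, SHMT2 and CHAC1.

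**Figure D4:**
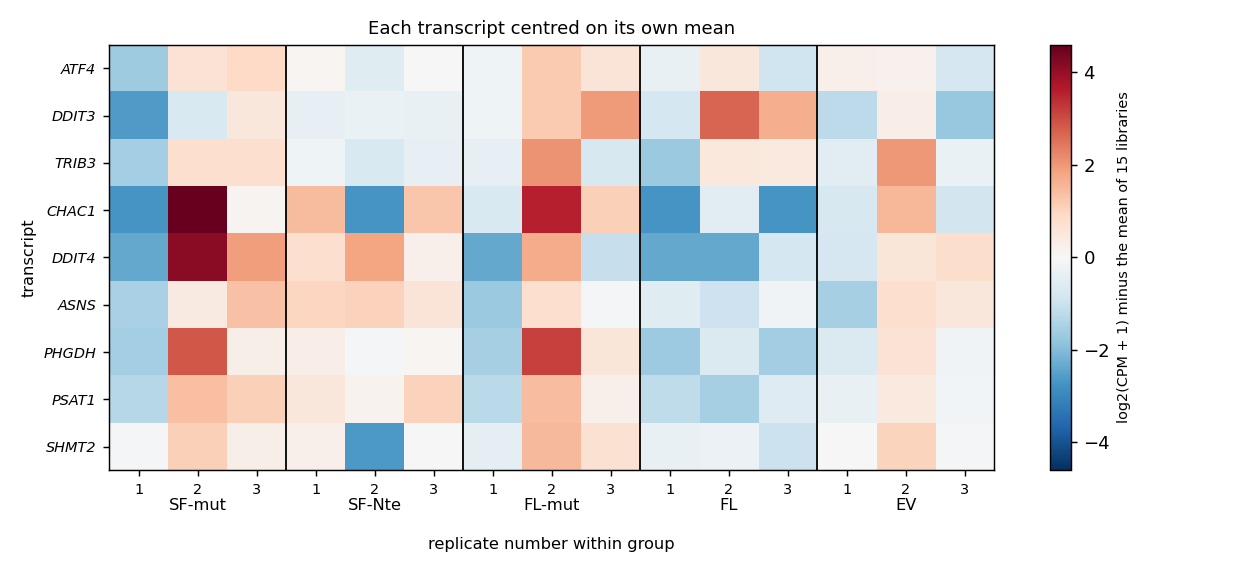
Each transcript as log2(CPM + 1) minus its mean over the 15 libraries, with groups SF-mut, SF-Nte, FL-mut, FL and EV from left to right and replicates 1 to 3 within each. Replicate 2 of SF-mut and of FL-mut is above the mean for every transcript except DDIT3 in SF-mut, replicate 1 of both is at or below it, and the FL columns are below it for the enzymes, CHAC1 and DDIT4. CHAC1 and DDIT4 passed the filter on low counts only through groups other than FL.

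In a model with group and replicate number, 0 of 9 transcripts passed for the replicate number, as did 0% of all tested genes, with 6 of 9 at an unadjusted p under 0.05 (9.24% of all genes). For replicate 2 against replicate 1, 0 of 9 passed, beside 0% of all genes, but all 9 log2 fold changes were above 0 (49% of all genes) with a median of 1.62, beside -0.01 over all genes. At an unadjusted p under 0.05, 7 of 9 were higher in replicate 2, beside 3.98% of all genes higher and 5.14% lower. DDIT4, TRIB3 and CHAC1 were among the 7 and passed the filter on low counts through their higher libraries. For TRIB3 these were all replicate 2, and for DDIT4 mostly so. Their direction in this count is therefore no separate support. PHGDH had a log2 fold change of 2.23 ± 0.61 (SE; edgeR, adjusted p = 0.377), DDIT3 1.62 ± 0.52 and ASNS 1.19 ± 0.46 (adjusted p = 0.409 and 0.46). CHAC1, DDIT4 and TRIB3 had larger fold changes with larger errors, at 3.40 ± 1.17, 3.26 ± 1.09 and 2.18 ± 0.73 (edgeR, adjusted p = 0.409 for each). For replicate 3 against replicate 1, 0 of 9 passed, beside 0%, with all 9 again above 0 (46.8% of all genes), a median of 0.91 and 2 of 9 at an unadjusted p under 0.05, DDIT3 at 1.49 ± 0.53 and ASNS at 1.2 ± 0.46 (8.69% of all genes). PHGDH, SHMT2, TRIB3 and CHAC1 were highest in replicate 2 in 4 of 5 groups, as were 5.66% of all tested genes. The limit set by the filter holds here for TRIB3 and CHAC1 as well. For TRIB3, replicates 2 and 3 were nearly level in SF-mut, at 12.33 and 12.30 CPM from 4 and 6 counts. The same held in FL, at 9.95 and 9.68 CPM from 8 and 10 counts.

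What a replicate number marks is not given in the labels. Over all tested genes, the deviations of FL-mut replicate 2 and SF-mut replicate 2 from their groups correlated at 0.46, the highest value between libraries of different groups. SF-mut replicate 2 was also the shallowest library, with 315693 counts, whereas FL-mut replicate 2, with 865997, was deeper than every short-form library. ZBTB18 itself stood at 3631 CPM in SF-mut replicate 2, against 853 and 896 CPM in the other SF-mut libraries, but at 2800 CPM in FL-mut replicate 2, against 907 and 6858 CPM. The part of depth and of the ZBTB18 level in these differences was not tested.

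The rest of the pathway was read from 7 lists. Of 6 tested enzymes of serine, glycine and one-carbon metabolism outside the 9, MTHFD2, a mitochondrial folate enzyme next to SHMT2, was the only gene that passed in any test. It averaged 412 ± 42.3 CPM in SF-Nte and 107 ± 23.6 CPM in FL, with a log2 fold change of 1.95 ± 0.42 (SE; edgeR, adjusted p = 0.0361), but it missed the threshold without any 1 of the 6 libraries (adjusted p between 0.0881 and 0.165). Its FL libraries held 80.4, 114 and 126 CPM, below all EV libraries at 165, 333 and 224 CPM. In FL against EV it had a log2 fold change of -1.17 ± 0.41 (edgeR, adjusted p = 0.351).

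In each of the other 6 lists no gene passed in any of the 13 tests, and the values of the 2 genes with the lowest p in FL against EV are given. Of 10 tested enzymes that make other amino acids, BCAT1, a branched-chain transaminase, averaged 19.0 ± 8.04 CPM in FL and 57.8 ± 7.44 CPM in EV, and CTH, which makes cysteine, 63.7 ± 47.0 CPM in FL and 10.8 ± 9.09 CPM in EV. Of 8 tested amino acid transporters, SLC7A5, a leucine carrier, averaged 2.68 ± 2.78 CPM in FL and 18.3 ± 1.63 CPM in EV, and SLC7A11, the cystine carrier, 41.0 ± 29.9 CPM in FL and 80.2 ± 47.7 CPM in EV. Of 12 tested genes of tRNA charging, NARS averaged 43.0 ± 8.92 CPM in FL and 71.9 ± 30.5 CPM in EV, and LARS 47.8 ± 18.6 CPM in FL and 77.7 ± 19.7 CPM in EV. The median log2 fold change in FL against EV was -0.74, -0.48 and -0.41 in these 3 lists, with 6 of 10, 6 of 8 and 10 of 12 genes below 0, and -0.34 with 4 of 6 below 0 in the serine list, beside 50.4% of all tested genes. In FL-mut against FL all 12 of the tRNA list were above 0 (median 0.47), beside 51.2% of all genes, and none had an unadjusted p under 0.05.

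Among 7 tested stress regulators downstream of ATF4, VLDLR, a lipoprotein receptor, averaged 21.4 ± 9.94 CPM in FL and 7.64 ± 7.90 CPM in EV, and PPP1R15A, which directs the dephosphorylation of eIF2, 5.62 ± 3.99 CPM in FL and 1.13 ± 1.27 CPM in EV. The median log2 fold change of these 7 in FL against EV was 0.03, with 3 of 7 below 0. Among 10 tested eIF2 kinases and subunits, EIF2S2 averaged 62.9 ± 21.6 CPM in FL and 131 ± 59.5 CPM in EV, and EIF2B2 10.9 ± 4.08 CPM in FL and 4.42 ± 3.56 CPM in EV. Their median was -0.27, with 9 of 10 below 0. The chaperone arm of the unfolded protein response, which runs mainly through ATF6 and XBP1, had 13 tested genes. DNAJC3 averaged 112 ± 41.9 CPM in FL and 44.3 ± 12.9 CPM in EV, and HYOU1 147 ± 84.8 CPM in FL and 55.7 ± 9.27 CPM in EV. Its median log2 fold change in FL against EV was 1.08, with 1 of 13 below 0, beside 50.4% of all tested genes, and 3 at an unadjusted p under 0.05, beside 7.64%. As a mean of centred log2 CPM the list lay at -0.09, 0.87 and 0.88 in FL replicates 1, 2 and 3 and between -0.27 and -0.16 in EV, so FL replicate 1 stood close to EV. In SF-Nte against FL the median was -1.15. The mutant full-length form had a median of 0.84 against EV, with 12 of 13 above 0. There 5 had an unadjusted p under 0.05 in edgeR, beside 10.5% of all genes. In SF-mut against FL-mut the median was -0.88, with 12 of 13 below 0. DDIT3 had log2 fold changes of 2.36 in FL against EV and -2.11 in SF-Nte against FL, and both comparisons use the FL libraries. Its values were 1.83 in FL-mut against EV and -1.67 in SF-mut against FL-mut, which share the FL-mut libraries.

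The genes whose levels followed the mean of the 9 most closely over the 15 libraries were TMEM205, at a Pearson correlation of 0.906, EIF4EBP1 at 0.893, YIPF3 at 0.877, S100A11 at 0.857 and SUMF2 at 0.843. EIF4EBP1 encodes a repressor of cap-dependent translation and belongs to the list of stress regulators downstream of ATF4. The correlations rest on libraries that share depth and scaling and are a description.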

How the data were processed

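Polyadenylated RNA of 15 SNB19 libraries was sequenced as Nanopore cDNA, per the labels' protocols. The authors deposited 1 table of whole-number counts per gene symbol, and the submitters' processing notes name GRCh38. Not given in the sources used here are the aligner, counter, annotation and use of strand. Totals of 315693 to 1930245 counts per library limit the precision for low genes. Genes were kept with filterByExpr (minimum count 10, minimum total 15), which left 6767 of 18485. All 15 libraries were fitted together with edgeR 4.0.16 (TMM scaling, robust quasi-likelihood F tests, 10 residual degrees of freedom) under R 4.3.3, with Benjamini-Hochberg adjustment over all genes tested and a threshold of 0.05. Standard errors were the log2 fold change over the root of F. Groups and replicate numbers followed the sample titles. Replicate number was tested in a model with group and number. The alternatives were DESeq2 1.42.0, its size factors in edgeR, no filter, fits of 2 groups, a replicate block and leaving out each library. The scripts were tested on simulated data. Promoter windows were read from RefSeq tables (GRCh38.p14) with Python 3.11.15.

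The genes described and the lists were chosen with earlier results of these data known. Named outside the 9 genes are ZBTB18, list genes that passed a test (otherwise, for the pathway lists, the 2 of lowest p in FL against EV), MARS (it overlaps DDIT3), ANXA1 and NUPR1, picked after their values were seen, and the 5 genes most correlated with the mean of the 9 (log2 CPM, prior count 2). The 7 pathway lists cover serine, glycine and one-carbon enzymes, other amino acid synthesis, amino acid transporters, aminoacyl-tRNA synthetases (each under its older and newer symbol), stress regulators, eIF2 factors and the ATF6 and XBP1 arm.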

Additional observations from a re-analysis of the deposited data

How the results depend on the processing

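The count of 0 of 9 transcripts past an adjusted p of 0.05 was repeated under 187 alternatives over the 13 tests, and 13 of these called at least 1. Without the filter on low counts edgeR called 2 transcripts in FL against EV, 2 in FL-mut against EV, 3 in FL-mut against FL, 1 in SF-mut against SF-Nte, 3 in SF-Nte against FL and 1 in SF-mut against FL-mut, and 5 in the joint test, 4 for the replicate number, 4 for replicate 2 against replicate 1 and 2 for replicate 3 against replicate 1. PHGDH, DDIT3, ASNS, SHMT2, CHAC1 and DDIT4 were among these. The same setting raised the genes called over the whole table to between 63 and 1059 in these tests, and the cause was not tested. A fit of SF-Nte and FL alone called 2, and it called 130 genes over the whole table, against 72 in the fit of all groups. DESeq2 called 1 in FL-mut against FL, where it called 112 genes over the whole table, against 6 in edgeR. It also called 1 in the joint test, where it called 652 genes over the whole table, against 76 in edgeR. Leaving out any 1 library gave 0 to 0 in every test, as did size factors in place of TMM. Of 766 alternatives of fold changes, 752 kept the sign. Without SF-mut replicate 2 the sign turned for PHGDH (-0.44) and CHAC1 (-1.46) in SF-mut against EV, and for PHGDH (-0.53), CHAC1 (-1.86) and DDIT4 (-0.17) in SF-mut against SF-Nte. Without FL-mut replicate 2 it turned for PHGDH in FL-mut against EV (-0.17) and in the interaction (-0.26). The other ends of these ranges with 1 library left out were 1.92 and 4 in SF-mut against EV, 1.85, 2.79 and 2.32 in SF-mut against SF-Nte, 2.26 in FL-mut against EV and 3.63 in the interaction. With both libraries out, a choice made after seeing the data, the values were -0.47, -1.46, -0.55, -1.87 and -0.19 for the same 5, -0.13 for PHGDH in FL-mut against EV and -0.02 for SHMT2 in replicate 2 against replicate 1. The replicate numbers were not taken to pair the libraries, since in 0 of 10 pairs of groups were all 3 same-number correlations of deviations above 0.1 (range -0.1 to 0.46). A library matched best with its own number in 30 of 60 comparisons, where each comparison offered 3 libraries to match. This is a hint from the data and not from the design, and it does not settle whether same-numbered libraries belong together. With the replicate block the count of called members was 0 in each of the 10 tests. DDIT4, TRIB3 and CHAC1 are limited by depth, as 3 counts correspond to 1.5 to 9.25 CPM.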

Other observations

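NUPR1, a small chromatin-binding stress protein induced through ATF4, is reported here after its values were seen. It had 18.0, 237 and 90.2 CPM in SF-mut replicates 1, 2 and 3, 59.7, 84.7 and 79.7 CPM in SF-Nte, 5.05, 178 and 67.1 CPM in FL-mut, 20.8, 87.1 and 59.0 CPM in FL, and 14.5, 69.9 and 41.0 CPM in EV. Replicate 2 was the highest library in all 5 groups and replicate 1 the lowest, a log2 fold change of 2.57 ± 0.50 for replicate 2 against replicate 1 (SE; edgeR, adjusted p = 0.289). In the same comparison 11 of 12 tRNA-charging genes, 12 of 13 genes of the ATF6 and XBP1 arm and 8 of 8 amino acid transporters were above 0, beside 49% of all tested genes. At an unadjusted p under 0.05, 5, 5 and 0 of them were higher in replicate 2, beside 3.98% of all genes, and none passed after adjustment. The mean of the tRNA-charging list was highest in replicate 2 in FL-mut and EV, in replicate 3 in SF-mut and FL, and in replicate 1 in SF-Nte.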
